A study of Mus musculus with 2 samples.

Results

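Expression of the Lin28 and let-7 axis was examined in mouse primordial germ cells (PGCs), the embryonic founders of oocytes and sperm. The axis was represented by 10 genes, chosen by symbol: the paralogs Lin28a and Lin28b, the let-7 targets Trim71, Mycn and Hmga2, the exonuclease gene Dis3l2, and the microRNA processing genes Drosha, Dgcr8, Dicer1 and Ago2. All 10 were among the 18877 genes of the table. RNA-seq covered 2 libraries of 1 group, untreated PGCs of strain C57BL6 collected at embryonic day 9.5 with an antibody to the surface antigen SSEA1. The methods describe female embryos and selection of SSEA1-positive cells by sorting (with CD61) or with magnetic beads, without saying which was used for which library, and the labels give no transgene, although the study also kept C57BL/6 mice that carry a GFP transgene. No library of another stage or cell type was analysed here.

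Lin28 proteins bind the precursors of the let-7 microRNAs and block their maturation. Lin28a brings the uridylyltransferases Tut4 and Tut7 to the precursor, whose terminal loop often holds a GGAG motif, and the exonuclease Dis3l2 degrades the uridylated precursor. Mature let-7 in turn represses mRNAs with sites complementary to its seed, bases 2 to 8, and Lin28a and Lin28b are themselves among these targets. In mouse PGC formation, Lin28a is known for relieving the PGC specification gene Prdm1 from let-7. The Microprocessor (Drosha with its partner Dgcr8) cuts primary transcripts, Dicer1 cuts the hairpin, and Ago2 carries the mature strand.

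Mature let-7 was not measured in these libraries, and its sequences are shown because the target sites below are read from them. RefSeq (GRCm38.p6) listed 9 different 5p strands for 11 let-7 family genes, all with the seed GAGGUAG, in capitals here. Of 1679 mature mouse microRNAs in that set, 11 carried this seed. miR-125a and miR-125b, which also target Lin28 mRNAs, share the seed CCCUGAG.
let-7a-5p: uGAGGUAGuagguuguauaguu
let-7d-5p: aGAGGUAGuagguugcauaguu
let-7e-5p: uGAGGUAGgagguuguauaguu
let-7g-5p: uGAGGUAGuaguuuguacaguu
miR-98-5p: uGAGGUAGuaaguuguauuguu
miR-125a-5p: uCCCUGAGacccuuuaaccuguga
miR-125b-5p: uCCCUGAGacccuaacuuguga

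The loop between both arms of each let-7 hairpin, the part that Lin28 contacts, was searched for GGAG on the transcribed strand. Mirlet7a-2, for which only the 3p strand was listed, was added by locating the let-7a-5p sequence in its hairpin. The motif was found in 9 of 12 family hairpins (75%), compared with 8.07% of all 644 hairpins with both arms annotated and 17.6% of the 136 whose loop had at least 20 bases. The let-7 family was not removed from these comparison sets, so part of both shares comes from its own hairpins. The loops of the 3 genes in the let-7 cluster on chromosome 13, which recurs below, all held the motif. Those of Mirlet7b and Mirlet7c-2 were among the loops without it. GGAG is in capitals, and the interval in brackets is that of the whole hairpin on GRCm38.p6.
Mirlet7a-1 (chr13:48538179-48538272, minus strand): uuagggucacacccaccacugGGAGauaa
Mirlet7f-1 (chr13:48537829-48537917, minus strand): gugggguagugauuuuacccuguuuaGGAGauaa
Mirlet7d (chr13:48536012-48536114, minus strand): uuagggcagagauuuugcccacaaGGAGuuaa
Mirlet7b (chr15:85707319-85707403, plus strand): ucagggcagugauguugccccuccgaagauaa
Mirlet7c-2 (chr15:85706603-85706697, plus strand): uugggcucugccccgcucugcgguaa

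Matches to the let-7 seed (CTACCTC, a 7mer, or CTACCTCA, an 8mer) were then counted on the sense strand of the longest 3′ untranslated region (UTR) annotated for each gene in GENCODE M21. Both Lin28 genes held them, with 2 matches in Lin28a and 4 in Lin28b, as did Trim71 with 4, Hmga2 with 4 and Ago2 with 3. No such match lay in the UTR of Mycn (913 bases), Dicer1, Dgcr8, Drosha or Dis3l2. Thus 5 of 10 genes had a 7mer and the same number an 8mer, beside 9.81% and 3.48% of all 12458 genes with a UTR in the table. Both Lin28 genes, Trim71 and Hmga2 were known let-7 targets beforehand, so part of this excess comes with the choice of genes. UTR length differed, with a median of 2894.5 bases in the 10 genes and 1078 in all. Among genes with a UTR within 25% of the length, a 7mer was held by 15.0% for Lin28a, 24.6% for Lin28b, 31.6% for Trim71, 16.6% for Hmga2 and 52.1% for Ago2. At least as many matches as in the named gene were held by 2.16%, 0.366%, 0.752%, 0.107% and 1.37% of them. These sets held 1943, 1092, 665, 1871 and 73 genes, so the small shares rest on few genes, the named gene itself among them. A match describes the letters only, and which UTR these cells use was not measured. Other forms of seed match, such as TACCTCA without the leading C, were not searched, so a UTR without a match may still hold one.

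The sites below show 22 bases ending opposite the first base of the microRNA, with the match in capitals (GRCm38, all on the minus strand).
Lin28a, let-7 (chr4:134005189-134005210): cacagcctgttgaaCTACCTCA
Lin28a, let-7 (chr4:134004551-134004572): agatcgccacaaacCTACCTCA
Lin28a, miR-125 (chr4:134005301-134005322): ggtacatgagcaatCTCAGGGA
Lin28b, let-7 (chr10:45381022-45381043): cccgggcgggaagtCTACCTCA
Lin28b, miR-125 (chr10:45378798-45378819): gacaaagaactttgCTCAGGGA
Trim71, let-7 (chr9:114512472-114512493): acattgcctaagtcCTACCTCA
Trim71, let-7 (chr9:114512376-114512397): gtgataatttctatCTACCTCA
Trim71, miR-125 (chr9:114512559-114512580): aaagaagaaatcgtCTCAGGGA
Hmga2, let-7 (chr10:120364224-120364245): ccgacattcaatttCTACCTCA
Ago2, let-7 (chr15:73097982-73098003): tttacaatgtggatCTACCTCA

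Lin28a, Lin28b and Trim71 each held 1 miR-125 seed match (CTCAGGG) as well, all followed by A. Such a match was held by 24.7%, 30.8% and 36.4% of genes of like UTR length. Ago2 held 2 miR-125 matches, and Dicer1 and Dis3l2 held 1 each, none followed by A. In all, 6 of 10 genes (60%) had one, beside 14.1% of all genes with a UTR, and both Lin28 mRNAs were known targets beforehand. Among genes of like UTR length the share was 47.9% for Ago2, 28.1% for Dicer1 and 4.55% for Dis3l2.

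**Figure D1:**
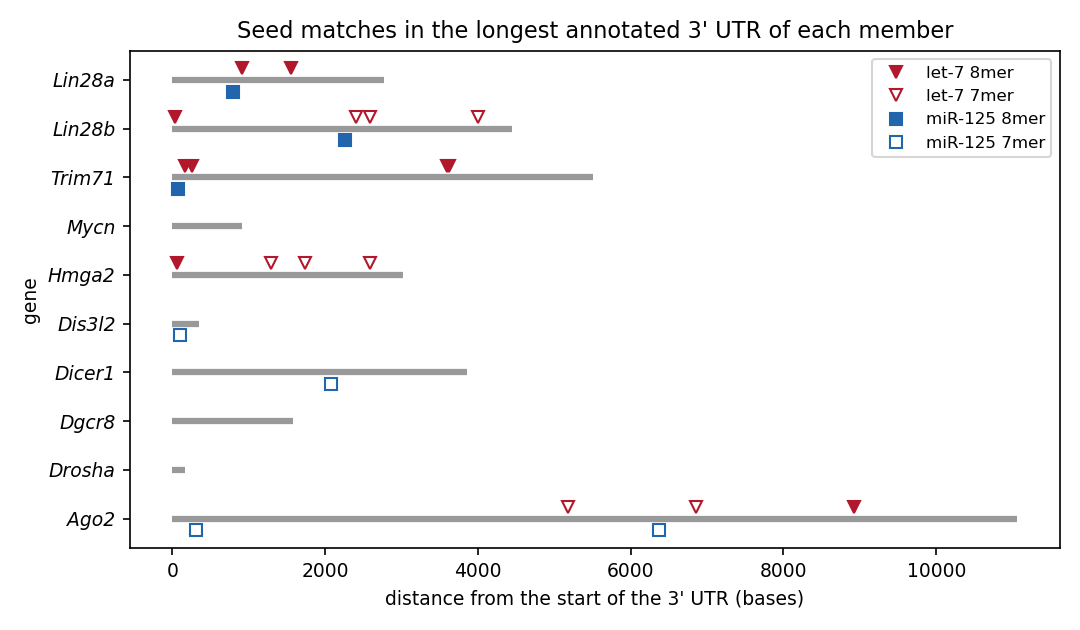
Seed matches along the longest annotated 3′ UTR of each of the 10 genes, by distance from the UTR start in bases (grey bar, UTR; triangles, let-7; squares, miR-125; filled, 8mer; open, 7mer). Trim71 has 4 let-7 8mers, at 166, 262, 3591 and 3617 bases (the last pair overlaps in the plot), Lin28a has 2, and Mycn, Dgcr8 and Drosha have no mark.

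Levels were compared as TPM, a relative unit per base of gene length, so TPM can be set side by side between genes. Reads recovered from the table numbered 15912469 in replicate 1 and 5458687 in replicate 2. Intervals of the reads are exact Poisson 95% intervals and cover counting error only. PGC identity was checked with 8 markers, each at 1 TPM or more in both replicates and together 5699 and 5721 TPM, most of it from Dppa3 (5044 ± 44.1 TPM, SD, n = 2). Prdm1, Kit, Prdm14 and Tfap2c lay between 6.11 and 18.2 TPM. Of the other markers, 5 of 7 primitive erythroid genes were in the table and summed to 3537 and 3331 TPM, mostly the globins Hba-x, Hbb-y and Hbb-bh1. Sums were 6.41 and 7.05 TPM for 3 of 4 neural, 2.37 and 3.95 for 5 of 5 mesenchymal, 12.9 and 11.0 for 5 of 6 endothelial and 19.4 and 9.53 for 4 of 4 macrophage genes. The mesenchymal gene Lum was listed at 0 in both libraries, and Emcn and C1qb were listed at 0 in replicate 2. The part of such cells in the values below was not tested, and in bulk RNA fewer cells of a type and less RNA per cell cannot be told apart.

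In both libraries 9 of the 10 genes were at or above 1 TPM, as were 60% of all genes and 69.5% of the 12679 protein-coding ones. The exception was Dis3l2. In log2(TPM + 1), the 10 genes had a median of 2.51 in the first and 2.77 in the second library (mean 2.64 ± 0.184, SD, n = 2), while that of all genes was 1.89 and 1.85 and that of protein-coding genes 2.29 and 2.21. A mean TPM above that of the median gene, which 50% of all genes exceed, was found for 6 of 10. The 4 others were both Lin28 genes, Ago2 and Dis3l2.

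**Figure D2:**
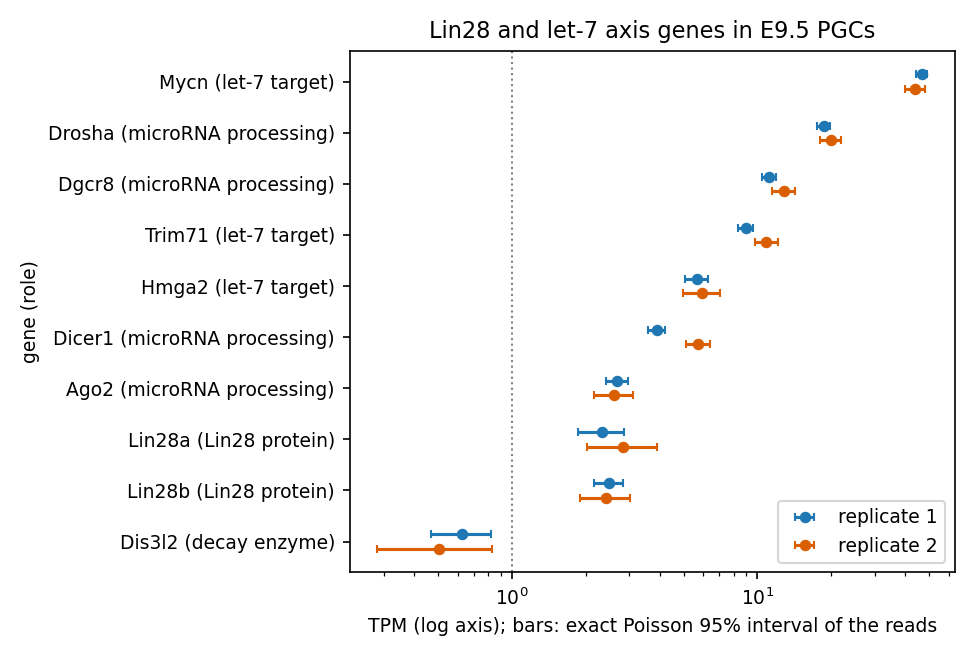
TPM (log axis) of the 10 genes in replicate 1 and replicate 2, ordered by mean, with exact Poisson 95% intervals of the reads as bars and a dotted line at a TPM of 1. Mycn is highest at 46.7 and 43.8 TPM, Lin28a, Lin28b and Ago2 overlap near 2.5 TPM, and Dis3l2 lies below 1 in both libraries.

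Both Lin28 paralogs were transcribed at low and similar levels. Lin28a (ENSMUSG00000050966.9, chr4:134003330-134018841) was at 2.32 TPM in replicate 1 and 2.84 TPM in replicate 2, from 88 and 38 reads. Lin28b (ENSMUSG00000063804.8, chr10:45376620-45486395) was at 2.48 and 2.41 TPM, from 214 and 73 reads. Lin28a was lower than Lin28b in replicate 1 and higher in replicate 2, and their intervals overlapped in each library. The difference, Lin28b minus Lin28a in log2(TPM + 1), was 0.07 and -0.17 (mean -0.05 ± 0.173, SD, n = 2), smaller than its spread. Both lay near the middle of the table, with mean TPM above that of 49.5% of genes for Lin28a and 48.4% for Lin28b. Among protein-coding genes these shares were 42.5% and 41.4%. This comparison depends on gene length, since the exons summed over all transcripts of Lin28b (9065 bases) exceed its longest transcript 1.68-fold, compared with 1.14-fold for Lin28a. With the longest transcript as the length, a choice made after seeing the data, Lin28b was at 3.36 ± 0.0765 and Lin28a at 2.41 ± 0.346 TPM (SD, n = 2). For Lin28a, 5.86% of exonic bases also belong to Gm13061, transcribed in the other direction, and no source says if strand was used in counting.

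The 3 let-7 target genes were all above both Lin28 genes in each library. Mycn (ENSMUSG00000037169.15, chr12:12936093-12941914), a transcription factor of the Myc family, was the highest of the 10 genes at 46.7 TPM in replicate 1 and 43.8 TPM in replicate 2, from 1462 and 483 reads. It exceeded 89.1% of all genes by mean TPM. Trim71 (ENSMUSG00000079259.2, chr9:114507133-114564369), the mammalian Lin41, encodes an RNA-binding ubiquitin ligase of early embryos and was at 8.97 and 10.9 TPM, from 796 and 339 reads. Hmga2 (ENSMUSG00000056758.14, chr10:120361275-120476469), an architectural chromatin protein, was at 5.65 and 5.92 TPM, from 364 and 134 reads. The level of Mycn was 5.20 and 4.04 times that of Trim71 and 8.25 and 7.41 times that of Hmga2, and the values of these 3 genes did not overlap. Mycn held no match to the let-7 7mer searched for, and Trim71 and Hmga2 had 4 each. Whether the number of matches goes with the level was not tested.

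Dis3l2 (ENSMUSG00000053333.15, chr1:86703808-87050095), which degrades uridylated pre-let-7, was the lowest of the 10 genes. It was at 0.626 TPM in replicate 1 (interval 0.469 to 0.819) and 0.504 TPM in replicate 2 (0.282 to 0.831), from 53 and 15 reads. Both intervals ended below 1 TPM, and its mean TPM exceeded that of 22.1% of all genes.

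Among the 4 processing genes, Drosha and Dgcr8, of the nuclear step, were above Dicer1 and Ago2. This order is that of the 4 genes and not of all genes of these steps. Drosha (ENSMUSG00000022191.16, chr15:12824815-12935291), the nuclease of the Microprocessor, was at 18.7 TPM in replicate 1 and 19.9 TPM in replicate 2, from 1053 and 395 reads. Dgcr8 (ENSMUSG00000022718.12, chr16:18253948-18289246), its RNA-binding partner, was at 11.1 and 12.8 TPM. Its values did not fall on whole reads with the M21 gene model, so its 815 and 329 reads are approximate. Dicer1 (ENSMUSG00000041415.10, chr12:104687742-104751952) was at 3.88 and 5.73 TPM, from 618 and 321 reads. Ago2 (ENSMUSG00000036698.11, chr15:73095844-73184935), the Argonaute protein with slicer activity, was lowest of the 4 at 2.68 and 2.60 TPM, from 358 and 122 reads.

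The level of Drosha was 1.67 and 1.56 times that of Dgcr8 and 4.81 and 3.47 times that of Dicer1, and Dicer1 was at 1.45 and 2.20 times Ago2. These 4 genes did not overlap in any library. For Dgcr8, 10.7% of exonic bases are shared with Trmt2a on the opposite strand and 4.25% with Gm49776 on the same strand, and its exons contain Mir1306. Reads in these stretches cannot be assigned to Dgcr8 alone. Of all 50-base words in transcripts of the other 9 genes, 4.72% or fewer occurred in transcripts of other genes.

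Ordered by mean TPM, the sequence was Mycn, Drosha, Dgcr8, Trim71, Hmga2, Dicer1, Ago2, Lin28a, Lin28b and Dis3l2. Of the 9 pairs of neighbours, 3 had overlapping replicate values: Hmga2 with Dicer1, Ago2 with Lin28a, and Lin28a with Lin28b. Dgcr8 and Trim71 did not overlap in their values, but their intervals overlapped in replicate 2. With the longest transcript as the length, Lin28b moved from position 9 to 7 and Ago2 from 7 to 9. Hmga2 (8.42 ± 0.262 TPM) then stood above Trim71 (8.12 ± 1.09 TPM), within their spread, while Mycn, Drosha and Dgcr8 stayed the first 3 and Dis3l2 the last.

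**Figure D3:**
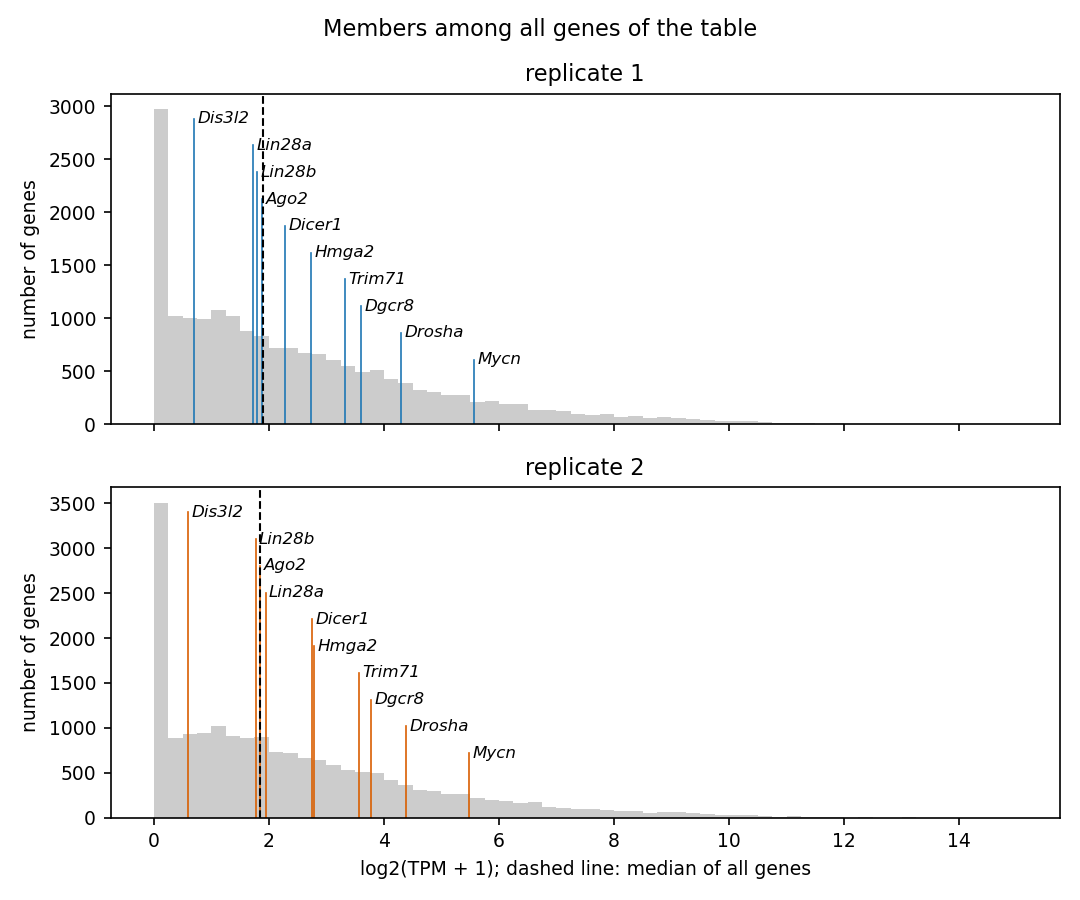
Histograms of log2(TPM + 1) of all 18877 genes in each replicate, with a labelled line at each of the 10 genes (line height carries no value) and a dashed line at the median of all genes. Lin28a, Lin28b and Ago2 sit at or near the dashed line in both replicates, Dis3l2 to its left and the other 6 to its right.

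None of the 10 genes differed more than 2-fold between the replicates on the log2(TPM + 1) scale. By this measure 4.31% of all genes were higher in replicate 2 and 5.89% in replicate 1. With so few genes, 0 of 10 is near these shares. The median absolute difference was 0.10 for the 10 genes, compared with 0.34 over the 12635 genes between their lowest and highest mean TPM. That set was not matched on gene length, and longer genes have more reads at the same TPM. Dicer1 differed most, by 0.46, with a TPM ratio of replicate 2 to replicate 1 of 1.48 (exact binomial 95% interval of the reads 1.29 to 1.69). The interval also lay above 1 for Trim71 (1.21, interval 1.06 to 1.38) and Dgcr8 (1.15, interval 1.01 to 1.31), and included 1 for the other 7. These ratios compare a pair of libraries and not conditions.

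Other genes of the axis were described by lists. Of 30 further let-7 targets, the table held 29, of which 23 (79.3%) were at or above 1 TPM in both libraries, beside 69.5% of protein-coding and 60% of all genes. The list median in log2(TPM + 1) was 2.60 and 2.45 (mean 2.53 ± 0.106, SD, n = 2). Among the highest were Cdc34, a ubiquitin-conjugating enzyme gene of the cell cycle, at 75.5 ± 2.86 TPM and Nme6 at 71.8 ± 2.72 TPM. Map4k3, a kinase gene, was at 19.8 ± 3.25 TPM and Nras, a Ras GTPase gene, at 18.05 ± 3.86 TPM. The lowest were Ccnj at 0.532 ± 0.170, Irs2 at 0.706 ± 0.340, Myc at 0.786 ± 0.290, the growth factor receptor gene Igf1r at 0.9995 ± 0.0225 and the insulin receptor gene Insr at 1.07 ± 1.04 TPM.

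Myc was at 0.581 and 0.991 TPM, from 15 and 9 reads, and its intervals (0.325 to 0.958 and 0.453 to 1.88) lay below the values of its paralog Mycn. Insr was the 1 gene of this list that differed more than 2-fold between the libraries, at 0.337 and 1.81 TPM from 44 and 83 reads. Prdm1, chosen for mention after its values were seen because of its place downstream of Lin28a, was at 7.84 and 6.11 TPM. Its longest annotated UTR (2490 bases) held neither the let-7 7mer nor the 8mer. The UTRs of 20 of these 29 genes held a let-7 7mer and those of 14 an 8mer, beside 9.81% and 3.48% of all genes, and they had been listed as targets to begin with.

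Other microRNA machinery genes formed the next list. The table held all 20, of which 18 (90%) were at or above 1 TPM in both libraries, beside 69.5% of protein-coding genes, and the list median in log2(TPM + 1) was 2.94 and 2.88 (mean 2.91 ± 0.0400, SD, n = 2). Ran, the GTPase with which Xpo5 exports hairpins, was highest at 1156 ± 77.2 TPM, followed by the chaperone gene Hsp90ab1 at 768 ± 10.5 TPM. The helicase Ddx5, a Microprocessor cofactor, was at 293 ± 15.6 TPM and its paralog Ddx17 at 18.9 ± 0.486 TPM. Dnd1, a germ cell RNA-binding protein gene known to counter microRNA repression, was at 35.3 ± 2.39 TPM. The lowest were Ago4 at 0.0582 ± 0.0395 TPM from 2 reads in each library, the Dicer1 partner gene Prkra at 0.680 ± 0.0813, Ago3 at 1.40 ± 0.244, Ipo8 at 2.15 ± 0.494 and Tnrc6b at 2.33 ± 0.618 TPM. Of the Argonaute genes, Ago1 was at 3.76 and 5.53 TPM, above Ago2 in both libraries. Ago1 was named after its values were seen.

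Genes of let-7 turnover and precursor binding ranged widely. The table held 14 of 16, of which 12 (85.7%) were at or above 1 TPM in both libraries, beside 69.5% of protein-coding genes, and the list median in log2(TPM + 1) was 3.44 and 3.14 (mean 3.29 ± 0.214, SD, n = 2). The RNA-binding protein gene Hnrnpa1 (572 ± 76.3 TPM) and Ybx1 (247 ± 4.47 TPM) were highest, followed by the exosome subunit gene Exosc3 (139.8 ± 3.29 TPM), the exonuclease gene Xrn2 (41.2 ± 0.599 TPM) and the poly(A) polymerase gene Papd4 (25.8 ± 3.72 TPM). Trim25 (5.91 ± 0.682 TPM), Khsrp (3.91 ± 0.964 TPM), Tut7 (1.43 ± 0.648 TPM), Dis3l (1.13 ± 0.0427 TPM) and Adar (0.477 ± 0.107 TPM) were lowest. Tut4, named after its values were seen, was at 8.42 and 6.03 TPM, above Tut7 at 0.971 and 1.89 TPM in both libraries. Reads that Ran, Hnrnpa1 or Ybx1 may share with processed pseudogenes were not measured.

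**Figure D4:**
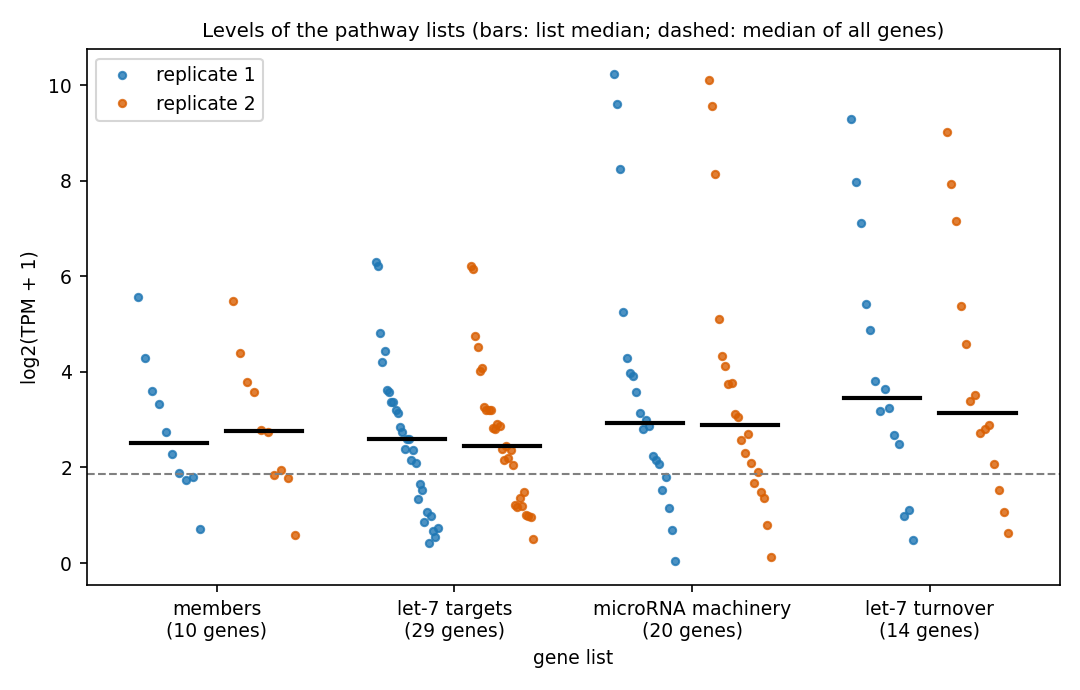
log2(TPM + 1) of each gene in the 10-gene axis and in the lists of let-7 targets, microRNA machinery and let-7 turnover, as points per replicate, with black bars at list medians and a dashed line at the mean of both medians of all genes. All list medians, from 2.45 to 3.44, lie above the dashed line, and every list also holds genes below it.

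The let-7 side of the axis was visible only through hairpin and host genes. Of 13 genes listed as precursors, the 12 family hairpins searched above and Mir202, 4 were in the table. Mir202 was not among the genes counted above as the let-7 family. Mirlet7a-1, Mirlet7f-1 and Mir202 were listed at 0 in both libraries, where the limit of a zero (3 reads) was 3.36 and 9.55 TPM for Mirlet7a-1. Mirlet7d was at 11.2 TPM from 11 reads in replicate 1 (interval 5.61 to 20.1) and 40.7 TPM from 14 reads in replicate 2 (22.2 to 68.2), a ratio of 3.62 (exact binomial 95% interval of the reads 1.53 to 8.81). This gene has 103 bases, so a few reads give a large TPM, and its values are not levels of mature let-7d. The 3 hairpins of this cluster whose loops are shown above lie wholly in exons of the long noncoding RNA 6720427I07Rik (chr13:48532905-48546500), and reads there can belong to either. This host gene, looked up after the values were seen, was at 3.61 and 4.03 TPM from about 192 and 75 reads. Of the other hosts, Wdr82, with let-7g in an intron, was at 35.3 ± 1.08 TPM, Huwe1, which hosts let-7f-2 and miR-98, at 3.19 ± 0.00850 TPM, and Mir99ahg at 0.374 ± 0.254 TPM (SD, n = 2). The precursor genes of miR-125 were not analysed here.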

How the data were processed

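The authors aligned clean reads to mm10 with Hisat2, counted them per gene with featureCounts and deposited TPM for 2 libraries. The authors' processing notes also list Bowtie2, RSEM, DESeq2 and R 3.4.2 with no role. Tool versions other than that of R, annotation and strand handling are not given in the sources used here. The methods describe Smart-seq2 cDNA and the labels another kit.

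Symbols were matched to GENCODE M21 on GRCm38, the assembly of mm10, for 18748 of 18877 genes. TPM multiplied by summed exon length fell on multiples of 1 amount per library, taken as 1 read. Of values under 50 reads, 96.7% and 95.8% were no farther than 0.02 from a whole read, where chance gives 4%. On simulated reads for 18748 genes, 98.4% and 99.6% of counts were recovered for the designs of replicate 1 and 2. The simulation made and recovered counts with the same exon lengths. It therefore cannot test whether the authors used these lengths. Without molecular identifiers, reads are no independent molecules. The series text calls the replicates biological, without saying how they were separated.

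Levels were analysed as log2(TPM + 1), which understates differences of low genes, with no filter. With 1 group of 2 libraries no test was run, and values are means with SD, exact Poisson or binomial intervals, and counts beside all genes. All 10 genes were named, with the 5 highest and 5 lowest of each further list and every precursor and host gene in the table. Exceptions are marked where they occur, and 1 gene among the highest targets and 1 hairpin loop are not reported here. The genes and lists were chosen with earlier results of these data known. Alternatives were a pseudocount of 0.1, median-ratio scaling, leaving out genes under 200 exonic bases, a filter at a mean TPM of 1, detection at 0.5 or 5 TPM and leaving out each replicate. The longest transcript as length was added after seeing the data. Sequences came from RefSeq (GRCm38.p6) and, for UTR sites, GENCODE M21. Python 3.11.15, numpy 2.4.6, pandas 2.3.3, scipy 1.17.1 and matplotlib 3.10.9 were used.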

Additional observations from a re-analysis of the deposited data

How the results depend on the processing

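Of 40 alternative values for the 7 summary results, 29 stayed within the spread between replicates (counts within 1.5 times) and 11 moved. A pseudocount of 0.1 moved the median of the 10 genes from 2.64 to 2.41, that of the let-7 targets from 2.53 to 2.28 and that of the microRNA machinery from 2.91 to 2.72. Leaving out genes under 200 exonic bases moved the targets to 2.71 and the machinery to 3.09. A filter at a mean TPM of 1 moved the targets to 2.78, the machinery to 3.07 and the turnover list from 3.29 to 3.52. Detection at 5 TPM kept 5 of the 10 genes in place of 9. The longest transcript as length gave a median of 3.04 for the 10 genes and 0.36 for Lin28b minus Lin28a, against -0.05. Leaving out either replicate cannot shift a mean of 2 libraries beyond their SD. For the medians and Lin28b minus Lin28a these values, counted among the 29, are therefore no check. Lin28b minus Lin28a changed sign (-0.17 and 0.07), and the count of genes at 1 TPM stayed at 9. For the levels of the 10 genes themselves, 23 of 60 alternative values moved. Leaving out genes under 200 exonic bases moved 9 of the 10, with shifts from 0.0804 to 0.209. The longest transcript as length moved 8 (shifts from -0.259 to 0.509) and a pseudocount of 0.1 moved 6 (-1.24 to -0.0284). Leaving out a replicate is no check here either. Median-ratio scaling moved no value of the 10 genes by more than 0.01. Depth limits Dis3l2 and Lin28a most, at 15 and 38 reads in replicate 2. No paired analysis was possible because the series has 1 group.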

Other observations

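The microRNA hairpins with the clearest signal among those looked at were of the Mir290 cluster, which is known from pluripotent cells, and they were chosen after their values were seen. Mir294 was at 244 TPM from 195 reads in replicate 1 and 210.1 TPM from 59 reads in replicate 2. Mir295 was at 293 and 260.1 TPM, from 192 and 60 reads, and Mir293 at 76.3 and 115.9 TPM, from 58 and 31 reads. The ratio of replicate 2 to replicate 1 had an exact binomial 95% interval that included 1 for each (0.860, interval 0.632 to 1.16, for Mir294, 0.889, interval 0.654 to 1.19, for Mir295 and 1.52, interval 0.950 to 2.39, for Mir293). The other 6 hairpin genes of this cluster in the table had 4 reads or fewer in each library, and Mir302a and Mir302d, of another cluster known from pluripotent cells, were listed at 0 in both. Mir293, Mir294 and Mir295 lie within the span of Nlrp12 (3.97 and 4.16 TPM), which is transcribed in the other direction. Mature strands were not measured. The 3p strands of miR-294 and miR-295 share the seed AAGUGCU, in capitals, which differs from that of let-7.
miR-294-3p: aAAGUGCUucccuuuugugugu
miR-295-3p: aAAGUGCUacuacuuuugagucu

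Of 487 annotated miRNA genes in the table, 220 were listed at 0 in both libraries and 378 had fewer than 10 reads in each. Together the 487 held 64147 and 22598 reads, far more than the Mir290 hairpins above. The genes holding the rest are not named here. At or above 1 TPM in both libraries were 29.4% of them, compared with 60% of all genes. These shares rest on unlike read counts, since hairpin genes are short and 1 read can pass this threshold. A single read gave 1.28 TPM for Mir292 in replicate 1 and 3.74 TPM for Mir92-1 in replicate 2. The primary transcript Mir17hg, with 1020 and 288 reads, was at 30.3 and 24.4 TPM, while the hairpin genes Mir18, Mir19a, Mir19b-1 and Mir20a inside that cluster were listed at 0 in both libraries and Mir17 and Mir92-1 had 1 or 2 reads.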
